A study of Mus musculus with 14 samples.

Results

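The genes of glycolysis and of the response to low oxygen were followed in mouse dendritic cells grown from bone marrow and treated with cathepsin inhibitors and inflammatory stimuli. The set is a list of 39 genes named for glucose transport, glycolytic enzymes and their regulators, lactate and pyruvate handling, oxygen sensing, and other genes known to be induced by hypoxia. Each gene was measured by its probe set, a group of short array probes read together as 1 signal, taking the one with the highest mean where a gene had several. A probe set annotated to a single gene was found for 36 of the 39, out of 18193 genes with such a probe set, and all 36 were among the 12192 genes bright enough to be tested. Gpi1, Eno1 and Bnip3l had no probe set of their own in the annotation and were left out.

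Cells break glucose down to pyruvate by glycolysis and can turn the pyruvate into lactate without using oxygen. When oxygen is short, the prolyl hydroxylases of the Egln family stop marking the transcription factor HIF-1α for destruction, and HIF-1α then raises the transcription of most glycolytic enzymes and of genes such as Vegfa, Bnip3 and Egln3 itself. Dendritic cells increase glycolysis when they are activated through Toll-like receptors, and HIF-1α can also be raised by inflammatory signals with oxygen present.

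The study asked how inhibitors of lysosomal cathepsins alter the response of dendritic cells to a stimulus of the Th1 type (CpG DNA) or the Th2 type (TNF-α). Marrow of BALB/c mice was cultured for 8 days with recombinant GM-CSF and fed on days 3 and 6. There were 7 groups: DMSO alone, CLIK148 alone, CA074Me alone, DMSO then CpG, DMSO then TNF-α, CLIK148 then CpG, and CA074Me then TNF-α. CLIK148 is an inhibitor of cathepsin L, and CA074Me is the cell-permeable methyl ester of an inhibitor of cathepsin B. Every culture was pre-treated for 1 h, with 5 µM of an inhibitor or with an equal volume of DMSO (0.01%), and CpG was then given at 25 µg/mL and TNF-α (TNF below) at 500 U/mL. How long the stimulus acted before RNA was taken is not known from the sources used here. Each group was made once in each of 2 independent experiments, so that every group has n = 2 and the 14 arrays form 2 complete sets of 7. CpG was not combined with CA074Me, nor TNF with CLIK148.

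All values are log2 signals on the scale deposited by the authors, on which 1 unit is a 2-fold difference, and levels of different genes are not compared because probes differ in brightness. The median of the arrays ran from 7.48 to 7.54. All 10 dendritic cell markers examined were bright enough to be tested, among them Itgax (10.9 to 12.1) and H2-Ab1 (14.4 to 14.8). Genes of other myeloid cells were bright too, with the granulocyte genes S100a8 and S100a9 at 14.7 to 15.2 and the macrophage gene Csf1r at 14.0 to 14.8. Of the erythroid and stromal genes, Hba-a1, Alas2, Col1a1 and Col3a1 stayed below the overall median of 7.52 on every array, and Pecam1 ran from 7.29 to 7.76. Among the lymphocyte and natural killer genes, Cd3e (7.65 to 7.95), Cd3d (7.70 to 8.92) and Ms4a1 (7.11 to 8.43) were bright enough to be tested. Cd79a and Ncr1 were not. In cultures of mixed cells, a lower signal from fewer cells of a type cannot be told apart from less RNA per cell. The experiments differed widely: with group held constant, 44.6% of genes tested differed between experiment 2 and experiment 1. Comparisons were therefore made within experiment, in a limma model of 7 groups with the experiment as an additive term, and a gene is said to be called, or to rise or fall, when its p-value adjusted over 12192 genes was below 0.05.

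**Figure D1:**
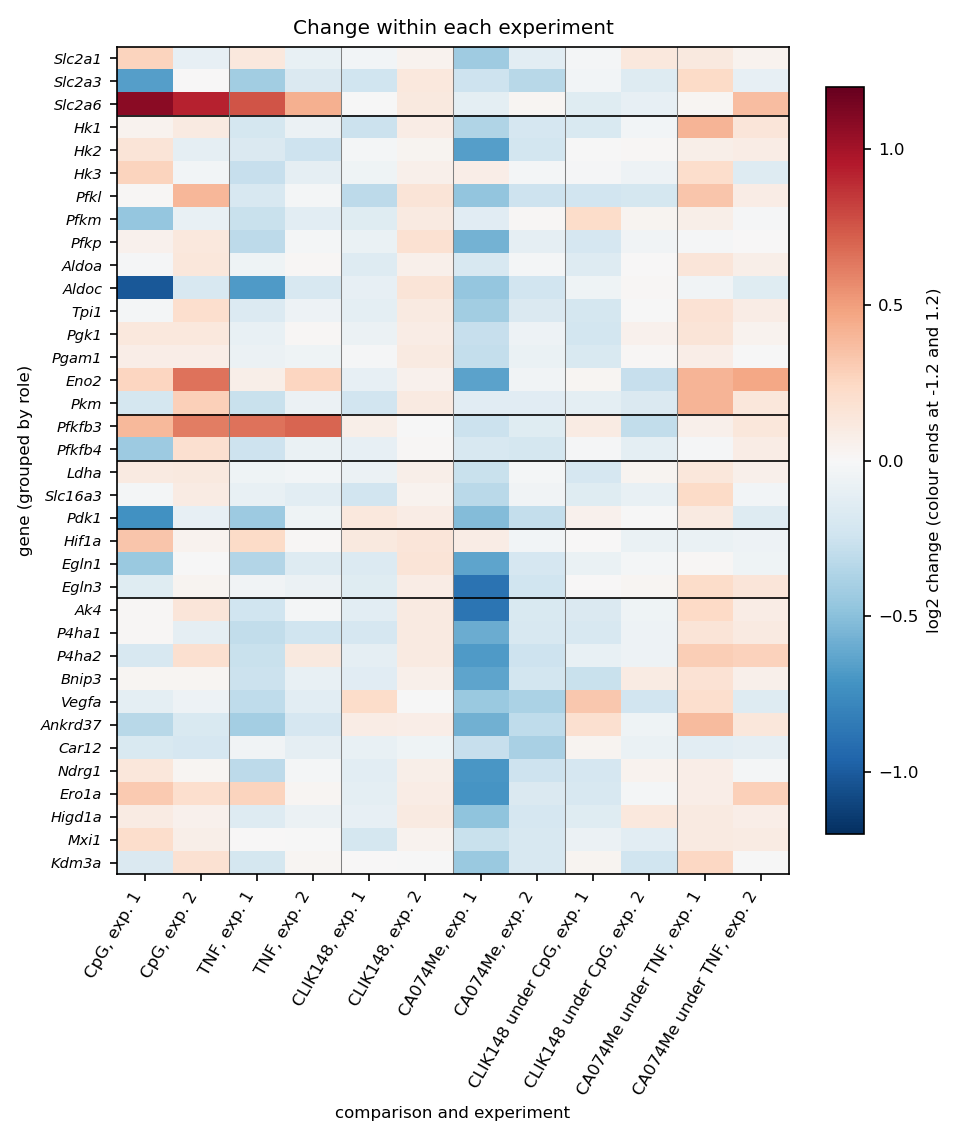
Log2 change of each of the 36 genes (rows, grouped by role, with lines between roles) within experiment 1 and experiment 2 (columns) for 6 comparisons, red for higher and blue for lower. Slc2a6 and Pfkfb3 are red with CpG and with TNF in both experiments, and the CA074Me columns are blue for 32 genes in both experiments.

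A small number of genes were called with the stimuli. CpG raised 3 of the 36 genes, Slc2a6, Pfkfb3 and Eno2, and lowered none, where 6.18% of all genes tested were called higher and 13.7% lower. TNF raised 2, Pfkfb3 and Slc2a6, and lowered none, where 1.14% of genes were called higher and 1.97% lower. Most enzymes of the pathway were not called with either stimulus: the median change of the 36 genes was 0.07 with CpG and -0.11 with TNF, against -0.05 and -0.05 over all genes tested. In the 2 experiments the median was 0.02 and 0.08 with CpG, and -0.20 and -0.07 with TNF. With TNF, 29 of the 36 genes had a change below 0 (62.5% of genes tested), and 25 were lower in both experiments (48.3%). With CpG, 16 were higher in both experiments and 7 lower (25.4% and 41.6% of genes tested). CpG exceeded TNF in 30 of the 36 genes (42.6% of genes tested), and in both experiments for 26 (27.3%). None of these differences between the stimuli was called. The CpG and TNF comparisons share the same DMSO arrays.

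Markers of cell type changed with the stimuli too. With CpG, 2 of the 10 dendritic cell markers were called, Ccr7 (1.17), a chemokine receptor of migrating cells, and Cd209a (-1.48), a lectin. Of the 6 macrophage genes 3 fell, C1qa (-1.51), Csf1r (-0.40) and Cd68 (-0.32), and 0 of the 7 granulocyte genes were called. The macrophage genes not called did not all go down. From DMSO to CpG, Fcgr1 went from 11.35 to 12.89 in experiment 1 and from 11.26 to 10.86 in experiment 2. Mertk went from 8.95 to 9.37 and from 8.29 to 8.24, and Adgre1 from 12.43 to 12.37 and from 12.88 to 12.73. The 5 markers called with CpG were called in the same directions with CpG after CLIK148. With TNF none was called, and with TNF after CA074Me Flt3 (0.55), a growth factor receptor, rose and Cd209a (-1.63) fell. These 2 genes went the same ways with TNF alone, without being called. From DMSO to TNF, Cd209a went from 9.86 to 7.94 in experiment 1 and from 8.66 to 7.95 in experiment 2. Flt3 went from 8.52 to 8.88 and from 8.61 to 8.96. The mean level of the 6 macrophage genes in the 2 experiments was 12.01 and 11.76 with DMSO, 11.79 and 11.46 with CpG, 11.47 and 11.49 with TNF, 11.98 and 11.71 with CA074Me, and 11.46 and 11.31 with CA074Me and TNF. That of the dendritic cell markers lay between 11.62 and 11.95 on all arrays. The part of these differences in the changes of the set was not tested.

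Of the 3 glucose transporters, Slc2a6, a facilitative hexose carrier of the GLUT family, showed the largest response of the set to CpG. Slc2a6 in experiment 1 gave 11.80 with DMSO, 11.80 with CLIK148, 11.68 with CA074Me, 12.89 with CpG, 12.56 with TNF, 12.74 with CLIK148 and CpG, and 12.58 with CA074Me and TNF. Slc2a6 in experiment 2 gave 10.91 with DMSO, 11.03 with CLIK148, 10.94 with CA074Me, 11.83 with CpG, 11.34 with TNF, 11.74 with CLIK148 and CpG, and 11.71 with CA074Me and TNF. Within each experiment the 4 stimulated arrays lay above the 3 unstimulated ones, while experiment 1 lay above experiment 2 throughout, so that CpG in experiment 2 only reached the level of DMSO in experiment 1. The change with CpG was 1.00 (95% confidence interval 0.76 to 1.25), with 1.09 in experiment 1 and 0.92 in experiment 2, and an adjusted p of 0.00158 in limma. With TNF it was 0.59 (interval 0.34 to 0.84; 0.76 and 0.43), with an adjusted p of 0.0284 in limma. The difference between the stimuli, 0.41 in favour of CpG, had an adjusted p of 0.153 and was not called.

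Slc2a1, the main glucose transporter of many proliferating and activated cells, showed no called change. Slc2a1 in experiment 1 gave 13.62 with DMSO, 13.60 with CLIK148, 13.20 with CA074Me, 13.89 with CpG, 13.75 with TNF, 13.87 with CLIK148 and CpG, and 13.87 with CA074Me and TNF. Slc2a1 in experiment 2 gave 13.80 with DMSO, 13.85 with CLIK148, 13.68 with CA074Me, 13.71 with CpG, 13.71 with TNF, 13.83 with CLIK148 and CpG, and 13.76 with CA074Me and TNF. The arrays lay between 13.68 and 13.89 apart from 3 lower values, of which the lowest, 13.20, was CA074Me alone in experiment 1. The change was 0.08 with CpG (interval -0.24 to 0.41) and 0.02 with TNF (interval -0.31 to 0.34). Slc2a3, another GLUT carrier, changed by -0.33 with CpG and -0.30 with TNF, neither of them called.

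Pfkfb3, which makes the allosteric activator of phosphofructokinase and thereby speeds glycolysis, was called with both stimuli. Pfkfb3 in experiment 1 gave 10.71 with DMSO, 10.78 with CLIK148, 10.45 with CA074Me, 11.10 with CpG, 11.36 with TNF, 11.20 with CLIK148 and CpG, and 11.43 with CA074Me and TNF. Pfkfb3 in experiment 2 gave 11.10 with DMSO, 11.09 with CLIK148, 10.95 with CA074Me, 11.71 with CpG, 11.80 with TNF, 11.42 with CLIK148 and CpG, and 11.94 with CA074Me and TNF. Stimulated arrays were above unstimulated ones within each experiment, and the 2 TNF values did not overlap the 2 DMSO values across experiments either. The change was 0.50 with CpG (interval 0.30 to 0.71; 0.39 and 0.61 in the 2 experiments; adjusted p = 0.00902 in limma) and 0.68 with TNF (interval 0.47 to 0.88; 0.65 and 0.70; adjusted p = 0.0105). The other bright probe set of Pfkfb3 gave smaller values, 0.17 with CpG and 0.21 with TNF, and neither was called when it stood for the gene. Pfkfb4, the related enzyme, changed by -0.12 with CpG and -0.16 with TNF and was not called.

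Among the enzymes of glycolysis, Eno2, an enolase best known from neurons, was called with CpG. Eno2 in experiment 1 gave 8.65 with DMSO, 8.55 with CLIK148, 8.01 with CA074Me, 8.91 with CpG, 8.72 with TNF, 8.93 with CLIK148 and CpG, and 9.13 with CA074Me and TNF. Eno2 in experiment 2 gave 8.85 with DMSO, 8.89 with CLIK148, 8.80 with CA074Me, 9.50 with CpG, 9.10 with TNF, 9.22 with CLIK148 and CpG, and 9.56 with CA074Me and TNF. The 2 CpG values lay above the 2 DMSO values, and TNF after CA074Me gave the highest value of each experiment. The change with CpG was 0.46 (interval 0.17 to 0.74; 0.26 and 0.65), adjusted p = 0.0359 in limma. Eno2 changed by 0.16 with TNF and was not called. The CpG call of Eno2 was lost when any 1 of the 4 arrays compared was left out (adjusted p 0.0841 to 0.172 in limma), and that of Pfkfb3 when either DMSO array was left out (0.0522 and 0.0692). With TNF, 0 genes of the set were called without either DMSO array or without the TNF array of experiment 1.

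Hk2 and Ldha, at the entry and the exit of glycolysis, were not called with CpG or with TNF. Hk2 is the inducible hexokinase. Hk2 in experiment 1 gave 12.60 with DMSO, 12.58 with CLIK148, 11.94 with CA074Me, 12.76 with CpG, 12.43 with TNF, 12.76 with CLIK148 and CpG, and 12.50 with CA074Me and TNF. Hk2 in experiment 2 gave 12.69 with DMSO, 12.73 with CLIK148, 12.48 with CA074Me, 12.58 with CpG, 12.44 with TNF, 12.60 with CLIK148 and CpG, and 12.53 with CA074Me and TNF. CA074Me alone in experiment 1, at 11.94, lay apart from the other arrays. Ldha turns pyruvate into lactate. Ldha in experiment 1 gave 14.22 with DMSO, 14.15 with CLIK148, 13.95 with CA074Me, 14.32 with CpG, 14.17 with TNF, 14.12 with CLIK148 and CpG, and 14.30 with CA074Me and TNF. Ldha in experiment 2 gave 14.12 with DMSO, 14.19 with CLIK148, 14.09 with CA074Me, 14.24 with CpG, 14.09 with TNF, 14.27 with CLIK148 and CpG, and 14.15 with CA074Me and TNF. All 14 Ldha values lay between 13.95 and 14.32, and CA074Me alone was the lowest in experiment 1. With CpG the change was 0.02 for Hk2 and 0.11 for Ldha, and with TNF -0.21 and -0.04, none of them called.

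**Figure D2:**
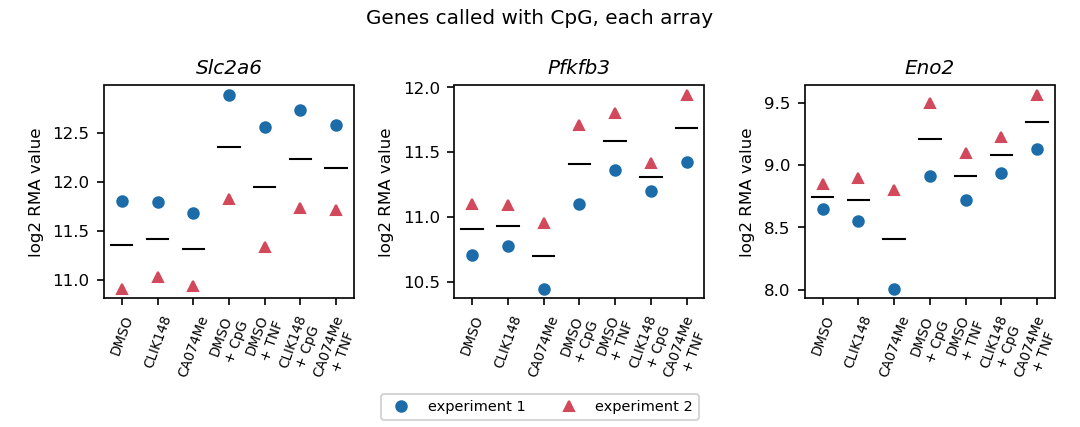
Log2 RMA value (vertical axis) of Slc2a6, Pfkfb3 and Eno2 on every array, by group; circles are experiment 1, triangles experiment 2 and bars the mean of both. Groups with CpG or TNF lie above their unstimulated counterparts within each experiment for Slc2a6 and Pfkfb3, and Slc2a6 is lower in experiment 2 than in experiment 1 in every group.

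After an inhibitor the stimuli were compared with the inhibitor alone. CpG after CLIK148 raised Slc2a6 by 0.82 (adjusted p = 0.00393 in limma) and Pfkfb3 by 0.38 (0.0266) and lowered 1 gene, where 4.03% of genes were called higher and 13% lower. That gene was Aldoc, an aldolase, at -0.65 with an adjusted p of 0.049998. Aldoc in experiment 1 gave 12.09 with DMSO, 11.99 with CLIK148, 11.63 with CA074Me, 11.07 with CpG, 11.41 with TNF, 11.02 with CLIK148 and CpG, and 11.37 with CA074Me and TNF. Aldoc in experiment 2 gave 11.87 with DMSO, 12.02 with CLIK148, 11.64 with CA074Me, 11.67 with CpG, 11.68 with TNF, 11.68 with CLIK148 and CpG, and 11.53 with CA074Me and TNF. Both CpG groups lay far below DMSO in experiment 1 and slightly below it in experiment 2. Aldoc changed by -0.61 with CpG after DMSO, which was not called (adjusted p = 0.0559). When any 1 of 3 arrays was left out, fewer calls remained: 0 without CLIK148 alone of experiment 1, and 1 each without CLIK148 alone of experiment 2 or CLIK148 and CpG of experiment 1. On their other bright probe sets Pfkfb3 gave -0.00 and Aldoc -0.87. The interaction, which tests whether CLIK148 altered the CpG response, called 0 of the 36 genes (0% of all genes), with a median of -0.05.

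The core promoters of the genes that led the stimulus responses are shown because hypoxia-inducible genes are recognised by a short motif, the core of the hypoxia response element, to which HIF-1α and its partner bind. Sequences are from RefSeq on GRCm38.p6, 250 bases before to 50 bases after an annotated start, on the gene's strand, with every ACGTG or GCGTG on either strand in capitals (on the other strand these read CACGT and CACGC, and neighbouring matches can overlap). Promoters were in the table for 34 of the 36 genes, 53 promoters in all. The motif occurred in 41 of them (77.4%), belonging to 31 genes, and in 43.8% of all 32851 promoters of the same length. ACGTG on either strand occurred in 29 of the 53 (54.7%) against 19.6% of all promoters. Eno2, which was called with CpG, held no match, and 1 start of Pfkfb3 held 4. A match describes these letters only and was not tested for binding.
Slc2a6, chr2:27027949-27028248, minus strand: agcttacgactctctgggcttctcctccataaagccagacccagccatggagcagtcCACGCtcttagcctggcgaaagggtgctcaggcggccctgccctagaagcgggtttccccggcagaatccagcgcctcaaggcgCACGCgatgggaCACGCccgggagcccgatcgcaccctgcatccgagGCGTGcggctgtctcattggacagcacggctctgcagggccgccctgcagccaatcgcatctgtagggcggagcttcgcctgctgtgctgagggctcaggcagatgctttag
Pfkfb3, chr2:11502041-11502340, minus strand: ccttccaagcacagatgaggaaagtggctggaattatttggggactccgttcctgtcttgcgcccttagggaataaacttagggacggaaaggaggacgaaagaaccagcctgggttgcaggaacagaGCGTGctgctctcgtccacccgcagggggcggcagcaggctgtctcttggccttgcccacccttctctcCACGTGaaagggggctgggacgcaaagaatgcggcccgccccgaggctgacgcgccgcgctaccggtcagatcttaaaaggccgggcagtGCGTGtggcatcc
Eno2, chr6:124769624-124769923, minus strand: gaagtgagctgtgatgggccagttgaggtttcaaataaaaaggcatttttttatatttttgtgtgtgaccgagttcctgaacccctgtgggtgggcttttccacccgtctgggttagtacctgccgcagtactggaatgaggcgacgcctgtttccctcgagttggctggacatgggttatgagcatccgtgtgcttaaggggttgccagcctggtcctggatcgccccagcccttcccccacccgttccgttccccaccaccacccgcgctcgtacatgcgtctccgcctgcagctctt

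CA074Me without a stimulus was followed by lower values of nearly the whole set, though no gene was called. Of the 36 genes, 34 had a change below 0 (62.3% of genes tested), and 32 were lower in both experiments, where 37.7% of all genes tested were lower in both. The 2 CA074Me values lay wholly below the 2 DMSO values for 22 genes (13.1% of genes tested), and 22 were lower at an unadjusted p below 0.05 (2.17% of genes tested). The median change was -0.33 (-0.43 in experiment 1 and -0.19 in experiment 2), against -0.02 over all genes. Among the 100 lowest changes with CA074Me (0.82% of the 12192 genes), 18 were members of the set. The genes were listed with earlier results of these data known, so the shares given here and below are not an independent comparison with all genes. After adjustment in limma the lowest p among the 36 was 1, and 0% of all genes were called.

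The 12 genes known mainly as hypoxia-inducible were all lower in both experiments and at an unadjusted p below 0.05, though none was called. Their median change was -0.42, and they ran from -0.23 for Mxi1, an antagonist of Myc, to -0.53 for Ak4, a mitochondrial adenylate kinase. The group takes in Ndrg1 (-0.47), a stress-responsive gene, P4ha1 (-0.39) and P4ha2 (-0.46), which hydroxylate collagen, Bnip3 (-0.42), which drives the removal of mitochondria, Vegfa (-0.41), the angiogenic growth factor, Higd1a (-0.34), a mitochondrial protein, Car12 (-0.34), a carbonic anhydrase, and Kdm3a (-0.32), a histone demethylase. For Ak4, the largest of these changes, the other bright probe sets gave -0.49, -0.09 and 0.13. Those of P4ha1 (-0.15), Vegfa (-0.26) and Higd1a (-0.24 and -0.12) also gave values nearer 0 than the probe set used. Those of Ero1a (-0.47 and -0.52), Mxi1 (-0.22) and Ndrg1 (-0.46 to -0.77) gave similar or larger changes. Of the oxygen sensors, Egln3 changed by -0.56 and Egln1 by -0.42. Hif1a, the gene of the transcription factor, changed by 0.03.

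Among the 13 enzymes of glycolysis the median was -0.28, and 7 were lower at an unadjusted p below 0.05: Hk1, Hk2, Pfkl, Pfkp, Tpi1, Pgam1 and Eno2. They act at some of the steps from glucose phosphorylation to enolase. At steps in between, Aldoa (-0.11), Aldoc (-0.34) and Pgk1 (-0.17) were lower without reaching that p. Hk3 (0.03) and Pfkm (-0.06) changed least. Pdk1, which holds pyruvate back from the mitochondrion, changed by -0.40, and Slc16a3 and Ldha, for lactate export and formation, by -0.18 and -0.14. The 3 transporters changed by -0.27 (Slc2a1), -0.29 (Slc2a3) and -0.05 (Slc2a6), and the regulators Pfkfb3 and Pfkfb4 both by -0.20. In 33 of the 36 genes the change was larger in size in experiment 1 than in experiment 2.

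Egln3, a prolyl hydroxylase that is itself a HIF target, shows the pattern. Egln3 in experiment 1 gave 12.20 with DMSO, 12.05 with CLIK148, 11.31 with CA074Me, 12.05 with CpG, 12.16 with TNF, 12.06 with CLIK148 and CpG, and 12.38 with CA074Me and TNF. Egln3 in experiment 2 gave 12.36 with DMSO, 12.45 with CLIK148, 12.12 with CA074Me, 12.39 with CpG, 12.28 with TNF, 12.41 with CLIK148 and CpG, and 12.43 with CA074Me and TNF. CA074Me alone was the lowest of the 7 groups in each experiment, and its 2 values did not overlap those of DMSO. The change was -0.56 (interval -0.91 to -0.21), from -0.89 in experiment 1 and -0.24 in experiment 2. The other bright probe set of Egln3 gave -0.27.

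Ankrd37, an ankyrin repeat protein induced through HIF, followed the same order in part. Ankrd37 in experiment 1 gave 10.71 with DMSO, 10.80 with CLIK148, 10.14 with CA074Me, 10.38 with CpG, 10.30 with TNF, 10.57 with CLIK148 and CpG, and 10.68 with CA074Me and TNF. Ankrd37 in experiment 2 gave 10.93 with DMSO, 11.01 with CLIK148, 10.63 with CA074Me, 10.75 with CpG, 10.73 with TNF, 10.70 with CLIK148 and CpG, and 10.86 with CA074Me and TNF. CA074Me alone was again lowest in each experiment, but CpG and TNF were also below DMSO. The change with CA074Me was -0.44 (interval -0.65 to -0.22; -0.57 and -0.30).

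P4ha2, a subunit of collagen prolyl hydroxylase, and Ero1a, which forms disulfide bonds in the endoplasmic reticulum, complete the group with values on every array. P4ha2 in experiment 1 gave 8.36 with DMSO, 8.25 with CLIK148, 7.68 with CA074Me, 8.17 with CpG, 8.09 with TNF, 8.08 with CLIK148 and CpG, and 8.38 with CA074Me and TNF. P4ha2 in experiment 2 gave 8.51 with DMSO, 8.61 with CLIK148, 8.26 with CA074Me, 8.70 with CpG, 8.63 with TNF, 8.64 with CLIK148 and CpG, and 8.91 with CA074Me and TNF. Here too CA074Me alone was the lowest of 7 in each experiment. Ero1a in experiment 1 gave 12.86 with DMSO, 12.74 with CLIK148, 12.15 with CA074Me, 13.18 with CpG, 13.13 with TNF, 12.98 with CLIK148 and CpG, and 13.21 with CA074Me and TNF. Ero1a in experiment 2 gave 13.08 with DMSO, 13.17 with CLIK148, 12.91 with CA074Me, 13.28 with CpG, 13.10 with TNF, 13.26 with CLIK148 and CpG, and 13.39 with CA074Me and TNF. For Ero1a the lowest array of all was CA074Me alone in experiment 1, and it was also the lowest group of experiment 2, by a smaller margin. The changes with CA074Me were -0.46 for P4ha2 (-0.68 and -0.25) and -0.44 for Ero1a (-0.71 and -0.17).

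Vegfa was read at widely different levels in the experiments. Vegfa in experiment 1 gave 9.96 with DMSO, 10.19 with CLIK148, 9.52 with CA074Me, 9.85 with CpG, 9.66 with TNF, 10.17 with CLIK148 and CpG, and 9.86 with CA074Me and TNF. Vegfa in experiment 2 gave 11.04 with DMSO, 11.04 with CLIK148, 10.67 with CA074Me, 10.98 with CpG, 10.92 with TNF, 10.75 with CLIK148 and CpG, and 10.76 with CA074Me and TNF. Every array of experiment 2 lay above every array of experiment 1, and CA074Me alone was the lowest of each. The change with CA074Me was -0.41 (-0.45 and -0.38), and experiment 2 exceeded experiment 1 by 0.99 (adjusted p = 2.03e-05 in limma).

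Hif1a did not share the order. Hif1a in experiment 1 gave 12.88 with DMSO, 13.00 with CLIK148, 12.97 with CA074Me, 13.22 with CpG, 13.11 with TNF, 13.22 with CLIK148 and CpG, and 13.03 with CA074Me and TNF. Hif1a in experiment 2 gave 12.89 with DMSO, 13.04 with CLIK148, 12.86 with CA074Me, 12.94 with CpG, 12.90 with TNF, 12.85 with CLIK148 and CpG, and 12.84 with CA074Me and TNF. CA074Me alone lay 0.09 above DMSO in experiment 1 and 0.04 below it in experiment 2, and all 14 arrays fell within 12.84 to 13.22. The array measures the transcript, while oxygen acts on the HIF-1α protein, which was not measured.

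**Figure D3:**
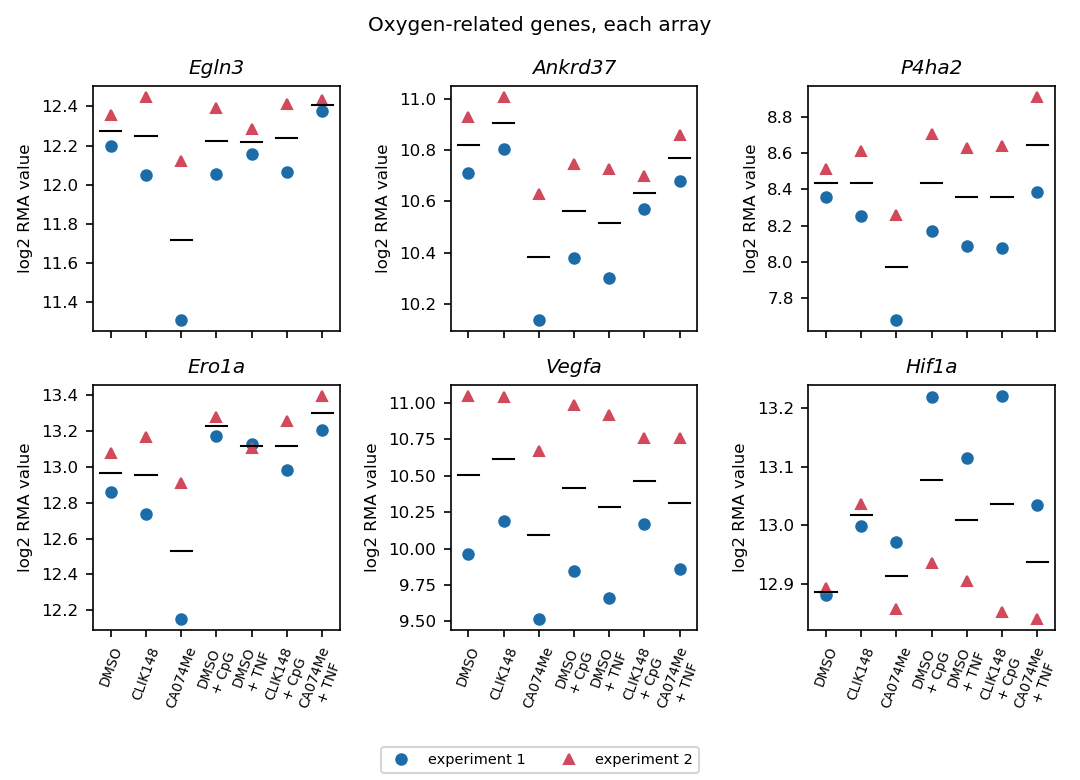
Log2 RMA value (vertical axis) of 6 oxygen-related genes on every array, by group; circles are experiment 1, triangles experiment 2 and bars the mean of both. CA074Me alone is the lowest group of each experiment for Egln3, Ankrd37, P4ha2, Ero1a and Vegfa, and not for Hif1a.

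Counted over the set, CA074Me alone was the lowest of the 7 groups in experiment 1 for 28 genes, in experiment 2 for 26 and in both for 22, where 6.15% of all genes tested were lowest in that group in both. No other group was lowest in both experiments for any of the 36 genes. A further 39 bright probe sets of 22 of the genes gave 37 values below 0 with CA074Me, with a median of -0.24. The median change with CA074Me was -0.02 for the 10 dendritic cell markers, -0.04 for 6 macrophage genes and -0.00 for 7 granulocyte genes, and none of these markers was called. The mean level of the dendritic cell markers was 11.95 and 11.77 on the CA074Me arrays, against 11.93 and 11.79 on the DMSO arrays. The median over all probe sets was 7.48 and 7.53 on the CA074Me arrays, and the 7.48, of experiment 1, was the lowest of the 14 arrays. The part of this in the low values was not tested. Control probes at the 3′ and 5′ ends of Gapdh, a check of RNA integrity, differed by -0.05 and -0.02 on the CA074Me arrays, within the -0.06 to 0.03 of all 14.

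The number called with CA074Me differed between fits, and why was not tested. When only the 4 arrays of DMSO and CA074Me were fitted, which leaves 1 residual degree of freedom per gene so that the spread comes mostly from other genes, 19 of the 36 genes were called lower and 0 higher (1.17% and 0.238% of genes tested). When the 4 CpG arrays were left out, an alternative chosen after seeing the data, 0 were called (0% of genes).

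The promoters of Egln3, Ankrd37 and P4ha2 are shown with the same motif in capitals, as examples of the 32 genes lower in both experiments with CA074Me. These promoters hold 1, 4 and 4 matches, and Vegfa, with 2 starts in the table, holds 2 and 0. The motif was found in 31 of the 34 genes with promoters. Car12, Eno2 and Tpi1, also lower in both experiments, hold 0. Whether matches go with the change was not tested.
Egln3, chr12:54203825-54204124, minus strand: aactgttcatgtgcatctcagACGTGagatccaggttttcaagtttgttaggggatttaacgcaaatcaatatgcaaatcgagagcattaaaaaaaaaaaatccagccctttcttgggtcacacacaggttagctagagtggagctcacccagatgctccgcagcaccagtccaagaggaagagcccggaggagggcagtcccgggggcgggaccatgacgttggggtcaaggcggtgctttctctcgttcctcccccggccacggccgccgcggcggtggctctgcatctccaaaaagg
Ankrd37, chr8:45999801-46000100, minus strand: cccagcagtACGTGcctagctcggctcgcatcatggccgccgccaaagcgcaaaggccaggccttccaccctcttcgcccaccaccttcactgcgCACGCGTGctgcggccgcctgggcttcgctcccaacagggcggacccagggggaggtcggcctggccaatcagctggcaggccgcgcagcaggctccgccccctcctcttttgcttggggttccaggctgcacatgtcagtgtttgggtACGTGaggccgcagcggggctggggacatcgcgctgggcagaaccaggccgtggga
P4ha2, chr11:54100674-54100973, plus strand: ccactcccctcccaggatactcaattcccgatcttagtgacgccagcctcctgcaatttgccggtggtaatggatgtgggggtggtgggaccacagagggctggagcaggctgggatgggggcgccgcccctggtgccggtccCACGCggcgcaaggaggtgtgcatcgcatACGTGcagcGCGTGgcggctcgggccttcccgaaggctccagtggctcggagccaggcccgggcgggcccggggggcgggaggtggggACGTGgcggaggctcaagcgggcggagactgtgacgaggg

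With CLIK148 alone, the median over the 36 genes was -0.00 (-0.10 in experiment 1 and 0.09 in experiment 2), 1 gene was lower in both experiments and 3 higher (29.6% and 19.1% of genes tested), and 0 were called (0% of all genes). The values ran from -0.10 for Slc16a3 to 0.13 for Hif1a. The inhibitors, given at the same dose for the same time, were also compared directly: CLIK148 exceeded CA074Me in 35 of 36 genes (54.9% of genes tested) by a median of 0.29 (0.34 and 0.27), and 20 genes were higher at an unadjusted p below 0.05 (1.76% of genes tested). None of these differences was called (0% of all genes), and the median 95% interval reached 0.26 to either side. This was the only matched pair of inhibitor groups, since the stimuli given after them differed. Both inhibitors were compared with the same DMSO arrays. With CLIK148 and CpG against CpG alone, 0 of 36 genes were called (0% of all genes), and the median was -0.08.

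**Figure D4:**
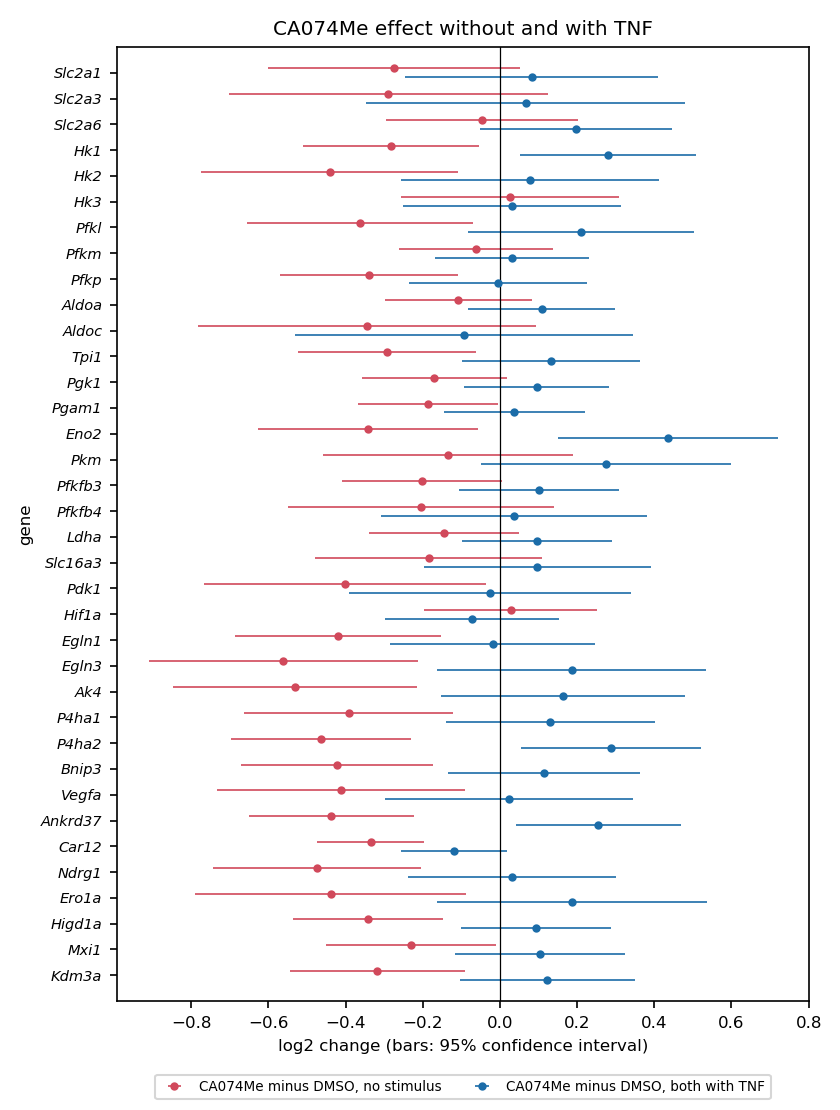
Log2 change with CA074Me (horizontal axis, points with 95% confidence intervals from the 14-array limma model) for each of the 36 genes (vertical axis), without a stimulus in red and with TNF in both arms in blue. The red points lie left of 0 for 34 genes and the blue points right of 0 for 30.

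In cultures that also received TNF, lower values with CA074Me than without it were not seen for most of the set. The TNF arrays used here as the reference had themselves lower means than DMSO for 29 of the 36 genes (62.5% of genes tested). CA074Me with TNF was not tested against DMSO alone. CA074Me with TNF exceeded TNF alone in 30 of the 36 genes (52.1% of genes tested), by a median of 0.10 (0.14 and 0.06 in the 2 experiments), against 0.00 over all genes. None of the 36 was called, where 0.0082% of genes were. The largest difference was that of Eno2, 0.43 (interval 0.15 to 0.72), followed by P4ha2 (0.29), Hk1 (0.28), Pkm, a pyruvate kinase (0.27), and Ankrd37 (0.25). The interaction, which tests whether the CA074Me effect differed without and with TNF, was above 0 for 35 of 36 genes (60.7% of genes tested) with a median of 0.39 (0.57 and 0.26), and 21 genes had an unadjusted p below 0.05 (1.96% of genes tested). It was 0.78 for Eno2, 0.75 for P4ha2, 0.75 for Egln3 and 0.69 for Ankrd37. After adjustment over all genes, none was called (0% of all genes).

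The same arrays read the other way give the response to TNF in CA074Me-treated cells, and here 10 of the 36 genes were called higher and 0 lower, where 4.96% of genes were called higher and 6.14% lower. They were Pfkfb3 (0.98, interval 0.78 to 1.19, adjusted p = 0.00102 in limma), Eno2 (0.94, adjusted p = 0.00303), Slc2a6 (0.83, 0.00281), Ero1a (0.77, 0.016), Egln3 (0.69, 0.0239), P4ha2 (0.68, 0.00534), Ak4 (0.56, 0.0358), Hk1 (0.42, 0.0321), Ankrd37 (0.39, 0.0343) and Higd1a (0.32, 0.0455). The median over the 36 genes was 0.28 (0.43 and 0.18), against -0.02 over all genes. This comparison starts from the CA074Me arrays on which the set was low, so it shares those values with the comparison of CA074Me and DMSO.

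The 3 called genes not yet shown by array were Ak4, Hk1 and Higd1a. Ak4 in experiment 1 gave 11.10 with DMSO, 10.97 with CLIK148, 10.22 with CA074Me, 11.12 with CpG, 10.86 with TNF, 10.94 with CLIK148 and CpG, and 11.10 with CA074Me and TNF. Ak4 in experiment 2 gave 10.75 with DMSO, 10.85 with CLIK148, 10.56 with CA074Me, 10.89 with CpG, 10.72 with TNF, 10.84 with CLIK148 and CpG, and 10.81 with CA074Me and TNF. The CA074Me values were lowest, and those with CA074Me and TNF were level with DMSO. Hk1 in experiment 1 gave 11.53 with DMSO, 11.27 with CLIK148, 11.17 with CA074Me, 11.57 with CpG, 11.32 with TNF, 11.39 with CLIK148 and CpG, and 11.73 with CA074Me and TNF. Hk1 in experiment 2 gave 11.48 with DMSO, 11.57 with CLIK148, 11.28 with CA074Me, 11.59 with CpG, 11.41 with TNF, 11.55 with CLIK148 and CpG, and 11.56 with CA074Me and TNF. CA074Me and TNF gave the highest Hk1 value of experiment 1 but not of experiment 2. Higd1a in experiment 1 gave 13.18 with DMSO, 13.08 with CLIK148, 12.71 with CA074Me, 13.28 with CpG, 13.03 with TNF, 13.14 with CLIK148 and CpG, and 13.13 with CA074Me and TNF. Higd1a in experiment 2 gave 13.36 with DMSO, 13.47 with CLIK148, 13.16 with CA074Me, 13.42 with CpG, 13.29 with TNF, 13.54 with CLIK148 and CpG, and 13.37 with CA074Me and TNF. CA074Me alone gave the lowest Higd1a value of each experiment.

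Without the CA074Me array of experiment 1, 3 of the 10 genes were still called, Slc2a6, Pfkfb3 and Eno2, and the change was 0.41 in place of 0.69 for Egln3, 0.29 in place of 0.56 for Ak4 and 0.49 in place of 0.77 for Ero1a. Leaving out either array of CA074Me and TNF left 4 genes called. Of the 10 genes, 6 had other bright probe sets, 10 in all, of which 8 gave values above 0 and 2 below. Those of Ero1a gave 0.70 and 0.86, that of Egln3 gave 0.36, that of Hk1 0.21 and that of Pfkfb3 0.15. Ak4 gave 0.52, 0.02 and -0.09 on its others, and Higd1a 0.06 and -0.03, so the values called for Pfkfb3, Ak4 and Higd1a were not matched by all probe sets of these genes.

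**Figure D5:**
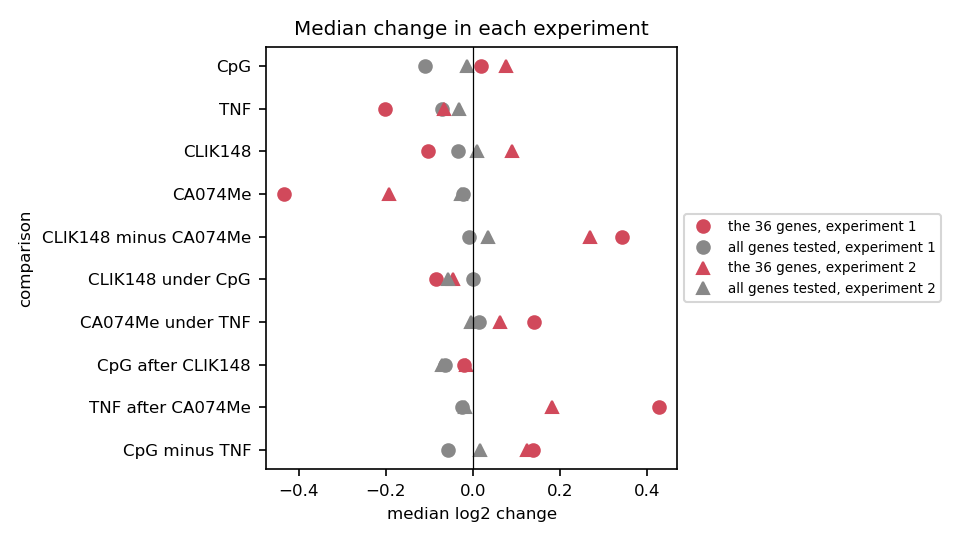
Median log2 change (horizontal axis) of the 36 genes (red) and of all 12192 genes tested (grey) in each of 10 comparisons (vertical axis), with circles for experiment 1 and triangles for experiment 2. In experiment 1 the set lies farthest from all genes with CA074Me (-0.43 against -0.02) and with TNF after CA074Me (0.43 against -0.03), and in experiment 2 for CLIK148 minus CA074Me (0.27 against 0.03).

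Of the 36 genes, 11 were called in at least 1 of the 12 comparisons between groups and 25 in none, where 26.1% of all genes tested were called in at least 1. All 18 called values rest on treating the experiment as a block: without it, 0 of the 18 passed, with adjusted p-values from 0.136 to 0.862 in limma. The experiments themselves differed for 20 of the 36 genes, with 16 higher and 4 lower in experiment 2, where 32.4% of genes tested were higher and 12.2% lower. The largest were Vegfa (0.99), Slc2a6 (-0.94), Slc2a3 (0.56) and Pfkfb4 (-0.50). What set the experiments apart is not known from the sources used here.

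A wider list of 67 tested genes of the same pathways, none of them in the set, was examined beside it. With CpG, 6 rose and 8 fell, where 6.18% of all genes tested were called higher and 13.7% lower. Those that rose were Siah2 (0.93), a ubiquitin ligase for prolyl hydroxylases, Lox (0.72), an oxidase that cross-links collagen, Eloc (0.67), a subunit of the VHL ubiquitin ligase, Bpgm (0.63), a mutase that branches off glycolysis, Adm (0.37) and 1 further gene. The largest falls were Tfrc, the transferrin receptor (-1.02), Car9, a carbonic anhydrase (-0.53), and Slc16a1, a lactate carrier (-0.375). TNF called 0 of the 67. TNF after CA074Me raised 8 and lowered 1, where 4.96% of all genes tested were called higher and 6.14% lower: Lox (0.89), Eno3 (0.86), an enolase of muscle, Gbe1 (0.84), which branches glycogen, Adm (0.82), a vasodilator peptide, Rora (0.55), Pdgfb (0.53), Fam162a (0.47) and 1 further gene rose and Tfrc fell by 0.77. Siah2 (1.07) and Bpgm (0.98) were also higher with CpG than with TNF, a comparison in which 0 of the 36 genes were called (0.344% of genes higher and 0.0902% lower).

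With CA074Me alone, the median of the wider list was -0.08, 41 of 67 genes were lower in both experiments (37.7% of genes tested), 10 were lower and 1 higher at an unadjusted p below 0.05 (2.17% and 0.582%), and 0 were called. Its 29 further hypoxia-inducible genes had a median of -0.15, its 26 further genes of glycolysis, lactate and glycogen -0.07, and its 12 HIF factors and regulators -0.03. The lists were not tested against each other.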

How the data were processed

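RNA of 14 cultures (7 groups, 2 experiments; 100 ng labelled per array) was read on Affymetrix mouse arrays. The authors deposited log2 values normalized with RMA under R 3.0.1, per the submitters' processing notes. Of 45101 probe sets, 64 controls were left out, 34945 were annotated to 1 gene, 932 to several and 9160 to none; gene names came from the platform annotation, updated through RefSeq. A gene was tested if it exceeded the overall median (7.52) on at least 2 arrays. limma 3.58.1 (R 4.3.3) fitted 7 groups with the experiment as a block, since replicate numbers mark the 2 independent experiments. As a check, replicate differences of 2 groups correlated at 0.455 to 0.935 over all 21 pairs of groups. p-values are 2-sided with Benjamini-Hochberg adjustment over 12192 genes, for 13 comparisons; with 2 arrays a group, the number of arrays limits the precision, and the median 95% interval of a member was 0.26 to either side. The procedure was tested on simulated data in which a stimulus acted equally in both experiments. In the real data the CpG changes of all genes had a standard deviation of 0.546 in experiment 1 and 0.267 in experiment 2, which the simulation did not cover. Array values are given for members called in a comparison between groups and for 7 genes chosen as pathway landmarks; other pathway genes are named only where called. The members and lists were chosen with earlier results of these data known. Alternatives covered the block, scaling, filter, probe set choice, prior, weights, arrays fitted and each array left out.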

Additional observations from a re-analysis of the deposited data

Results flagged for a closer look

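The median change of the 36 genes with CA074Me went opposite ways without and with TNF, in both experiments. Without a stimulus it was -0.43 in experiment 1 and -0.19 in experiment 2, and with TNF in both arms it was 0.14 and 0.0635. This difference between medians was not tested. Gene by gene, limma called 0 of the 36 interactions (21 at an unadjusted p below 0.05). Each median rests on 1 array against 1 array, and the larger values came from experiment 1 in both settings.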

How the results depend on the processing

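The replicate block decided the calls between groups: without it, 0 members were called with CpG, 0 with TNF, 0 with CpG after CLIK148 and 0 with TNF after CA074Me, and over all genes the calls dropped from 2420 to 234 with CpG, from 379 to 14 with TNF, from 2075 to 99 with CpG after CLIK148 and from 1354 to 159 with TNF after CA074Me. With the second highest probe set, which exists for 22 members, 0, 0, 1 and 4 were called in these comparisons and 10 between experiments; Pfkfb3 with CpG after CLIK148 then stood at -0.004 (adjusted p = 0.976 in limma) and Hif1a between experiments at 0.0541 (0.551). Fitting only the compared groups gave 0, 1, 0 and 19 calls, and 19 with CA074Me and 17 for CLIK148 minus CA074Me; over all genes this fit called 12.1% higher and 17.1% lower with TNF after CA074Me, and 1.05% higher and 0.361% lower for CLIK148 minus CA074Me. Array weights gave 17 calls with TNF after CA074Me, all higher (8.82% of all genes higher). Leaving the CpG groups out of the fit, chosen after seeing the data, gave 4 with TNF, 2 higher and 2 lower (4.88% and 13% of all genes), and 17 with TNF after CA074Me, all higher (11% of all genes higher and 16% lower). With 1 array left out, the calls ranged from 1 to 6 with CpG, from 0 to 2 with TNF, from 0 to 4 with CpG after CLIK148, from 3 to 11 with TNF after CA074Me and from 18 to 22 between experiments; the other comparisons stayed at 0 in each such fit. The 1 and 6 with CpG came without DMSO of experiment 1 and without CpG of experiment 2. Of 38 called values, 37 were kept under cyclic loess and 37 without the filter, 34 under reference-gene scaling, 38 with a trended prior, 36 with array weights and 36 with all probe sets tested; averaging each gene's probe sets kept 31 of 37. The share of all genes called is not given here for the fits with 1 array left out or with the second highest probe set. Those counts therefore do not show how the set stood against other genes. The causes of these shifts were not tested.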
